A study of Mus musculus with 2 samples.

Results

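Matrix metalloproteases (Mmp genes), their relatives with thrombospondin repeats (Adamts genes) and the tissue inhibitors of both (Timp genes) were examined in epididymal white adipose tissue of male mice lacking the nuclear receptor PPARb/d and of wild-type mice. The members were the probe sets of an Affymetrix mouse array whose single annotated gene symbol begins with Mmp, Adamts or Timp followed by a digit, which gave 47 of the 22690 probe sets in the table and 29 of the 12394 genes it represents. They comprise 25 probe sets of 18 Mmp genes, 9 probe sets of 7 Adamts genes and 13 probe sets of 4 Timp genes. The Adamts-like genes (Adamtsl) fall outside this choice.

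Each genotype was measured as 1 pool of RNA from 5 animals on 1 array. The wild-type pool came from males of 12 to 16 weeks whose strain is labelled 129S1/SvJae, and the knockout pool from males of 12 weeks with the PPARb/d knock-out, whose mixed background is given as Sv129/C57BL/6. All animals ate standard chow. The design text describes the controls as littermates, so the sources differ on the strain of the wild-type pool, and strain and genotype cannot be told apart where they differ. With 1 array per genotype no spread between animals or arrays exists and no test between genotypes was possible, and all values below describe these 2 arrays.

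The metalloproteases are zinc enzymes, made as inactive precursors, that cut collagens, proteoglycans and other proteins of the extracellular matrix. In fat they remodel the matrix around adipocytes and vessels as the tissue grows or shrinks. The gelatinase Mmp2 is activated at the cell surface by the membrane-bound protease Mmp14 together with the inhibitor Timp2. Several Adamts enzymes cut aggrecan, versican and related proteoglycans, and Timp3, which unlike the other inhibitors binds tightly to the matrix, inhibits Adamts5 as well as Mmp enzymes.

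The 250 bases before the annotated start of a gene were available from RefSeq for 18 of the 29 genes (build GRCm38.p6). They are shown here for 4 genes detected in these pools and for 3 that were below the detection floor. These 3 are all from the Mmp cluster on chromosome 9. The windows were chosen after the values were seen and do not stand for all 18 genes. Capitals mark exact matches on either strand. The TATA box was searched as TATAAA and the GC box, bound by Sp1, as GGGCGG. The element of AP-1, a factor induced by growth factors and inflammation, was searched as TGACTCA, and the box named after its letters as CCAAT. Matches of different motifs overlapped in 2 places, in the windows of Mmp7 and Mmp14, which are not shown. The first 4 windows belong to detected genes and the last 3 to genes below the floor, all read 5′ to 3′ along the gene.
Adamts1, chr16:85803114-85803363 (minus strand): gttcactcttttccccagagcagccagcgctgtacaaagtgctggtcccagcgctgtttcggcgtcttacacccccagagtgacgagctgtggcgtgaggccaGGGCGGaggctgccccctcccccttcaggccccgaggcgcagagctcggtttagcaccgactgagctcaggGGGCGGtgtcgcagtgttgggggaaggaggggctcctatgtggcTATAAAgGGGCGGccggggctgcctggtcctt
Timp2, chr11:118355412-118355661 (minus strand): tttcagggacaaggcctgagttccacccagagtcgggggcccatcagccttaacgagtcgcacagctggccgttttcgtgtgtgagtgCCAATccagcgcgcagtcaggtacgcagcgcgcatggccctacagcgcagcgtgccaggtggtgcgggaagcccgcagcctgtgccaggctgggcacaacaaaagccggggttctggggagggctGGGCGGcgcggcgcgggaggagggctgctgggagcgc
Timp3, chr10:86300162-86300411 (plus strand): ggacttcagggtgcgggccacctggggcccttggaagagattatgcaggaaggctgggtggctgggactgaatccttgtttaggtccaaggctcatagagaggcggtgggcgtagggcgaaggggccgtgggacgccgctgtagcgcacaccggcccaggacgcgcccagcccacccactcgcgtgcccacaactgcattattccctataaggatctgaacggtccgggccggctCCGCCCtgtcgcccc
Timp4, chr6:115252206-115252455 (minus strand): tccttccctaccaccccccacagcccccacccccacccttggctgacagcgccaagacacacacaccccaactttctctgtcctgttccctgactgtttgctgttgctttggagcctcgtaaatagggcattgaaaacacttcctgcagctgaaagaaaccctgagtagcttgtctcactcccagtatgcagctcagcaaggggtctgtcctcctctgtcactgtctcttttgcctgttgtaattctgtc
Mmp3, chr9:7445572-7445821 (plus strand): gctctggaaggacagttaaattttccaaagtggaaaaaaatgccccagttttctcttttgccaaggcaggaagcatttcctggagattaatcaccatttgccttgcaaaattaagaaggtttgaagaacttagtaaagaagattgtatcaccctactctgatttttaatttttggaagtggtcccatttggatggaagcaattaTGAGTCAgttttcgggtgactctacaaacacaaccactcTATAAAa
Mmp10, chr9:7502092-7502341 (plus strand): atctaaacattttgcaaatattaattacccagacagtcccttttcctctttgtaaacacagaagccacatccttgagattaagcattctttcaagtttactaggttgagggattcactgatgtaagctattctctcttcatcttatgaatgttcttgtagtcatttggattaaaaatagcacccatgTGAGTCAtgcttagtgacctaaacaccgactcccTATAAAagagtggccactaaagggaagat
Mmp13, chr9:7272264-7272513 (plus strand): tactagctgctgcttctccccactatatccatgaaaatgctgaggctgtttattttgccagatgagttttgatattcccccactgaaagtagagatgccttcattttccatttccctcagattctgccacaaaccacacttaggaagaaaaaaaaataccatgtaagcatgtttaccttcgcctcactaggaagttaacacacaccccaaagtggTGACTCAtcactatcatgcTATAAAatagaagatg

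An AP-1 match was found in 7 of the 18 genes, all Mmp genes of the cluster on chromosome 9, and lay 35 to 93 bases before the start. The 18 genes have 21 windows, and a gene was counted when any of its windows held the match. The shares over all windows below are counted by window. Of these 7 genes, Mmp1a, Mmp1b, Mmp3, Mmp10, Mmp12 and Mmp13 were below the floor in both pools and Mmp7 was above it in the wild-type pool. In 6 of the 7 the window also held a TATA box; Mmp12 was the exception. Over all 32851 windows of this length, 4.46% held an AP-1 match, 12.4% a TATA box and 0.721% both. A GC box was found in 4 of the 7 detected genes with a window (Adamts1, Mmp14, Timp2 and Timp3) and in 3 of the 11 undetected ones (Mmp11, Mmp24 and Timp1), against 32.7% of all windows. A CCAAT match was found in Mmp7, Mmp14, Timp1 and Timp2, against 33.8% of all windows. The windows of Timp4, Mmp8 and Mmp23 held none of these letters. A perfect direct repeat of AGGTCA spaced by 1 base, the form of element bound by PPAR and RXR, was in none of the members' windows and in 0.0335% of all windows, which says only that these letters are not in these bases.

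The values are probe set intensities on a linear scale. A probe set counted as detected, or kept, when it reached an intensity of 32 (log2 of 5) on at least 1 array, and each gene is given by the kept probe set whose mean was highest. Of the 47 member probe sets 20 were kept, from 9 genes: Mmp2, Mmp7, Mmp14, Mmp23, Adamts1, Adamts5, Timp2, Timp3 and Timp4. The other 20 genes were below the floor in both pools. All 9 detected genes, and all 20 of their kept probe sets, had a lower intensity in the knockout pool; over all 6533 genes kept, 55.5% were lower. Of the 20 probe sets 11 were at least 2-fold lower, beside 8.99% of all kept probe sets naming 1 gene. Only 13 of the 20 were at or above the floor on both arrays, 7 of them at least 2-fold lower. The other 7, which are the 6 Mmp probe sets and the dimmer one of Adamts5, were kept through the wild-type array alone, so their lower value was fixed by the floor. At least 2-fold lower were 5 of the 9, namely Mmp2, Adamts1, Adamts5, Timp3 and Timp4, beside a background of 9.14% of all genes kept. None was 2-fold higher, beside 13.7%, but the Mmp genes, kept through the wild-type array alone, could not be. Of the 5452 genes at or above the floor on both arrays, 431 were at least 2-fold higher. The median log2 difference (knockout minus wild type) of the 9 was -1.29, against -0.08 for all genes kept.

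The 4 Mmp genes are thus described with both values, and their direction supports nothing. The remaining 5 genes, of the Adamts and Timp families, were above the floor on both arrays, and 4 of those 5 were at least 2-fold lower, beside 8.84% of all genes above the floor on both arrays. In a bulk sample, fewer cells of a type and less RNA per cell cannot be told apart.

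Transcripts of other tissues differed between the pools along with the members. All 17 germ cell markers with a probe set were higher by 2-fold or more in knockout fat; their median log2 difference was 4.67 and their summed intensity 3883 in wild-type and 72722 in knockout fat. Of 9 epididymis markers 8 were higher (median 0.33), at summed intensities of 50912 and 60370. The 12 adipocyte markers were all detected, among them Adipoq at 10259 and 8030, and 11 were lower with a median of -1.12. The labelled tissue was therefore represented in both pools by its defining markers. Endothelial markers were lower in 9 of 10 detected genes (median -0.96) and macrophage markers in 12 of 14 (median -0.74). Fibroblast and preadipocyte markers were lower in 6 of 9 (median -0.87, or -0.17 when dim values were raised to the floor). Among all genes kept, 55.5% were lower, near the fibroblast and preadipocyte count, and 13.7% were at least 2-fold higher. Smooth muscle markers had a median of 0.19, with 3 of 7 lower, and ran from -1.15 (Mustn1) to 1.04 (Myh11). Mesothelial markers had a median of -0.01, with 4 of 7 lower, and ran from -1.49 (Gpm6a) to 0.63 (Krt8). The 4 detected Sertoli and Leydig cell markers were all higher (median 1.60), but unevenly. Sox9 differed by 0.05 and Clu by 0.38, whereas Cyp17a1 differed by 2.82 and Aard by 2.98. Some markers were kept through 1 array alone, so their direction was fixed by the floor. Through the knockout array these were the germ cell markers Tssk1, Tssk2, Cetn1 and Spz1, and Aard of the Sertoli and Leydig list. Through the wild-type array they were Cd14 and Cd163 (macrophages), Pi16 and Ebf2 (fibroblasts and preadipocytes), and Msln and Wt1 (mesothelium). The part of these transcripts in the members' differences was not tested.

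**Figure D1:**
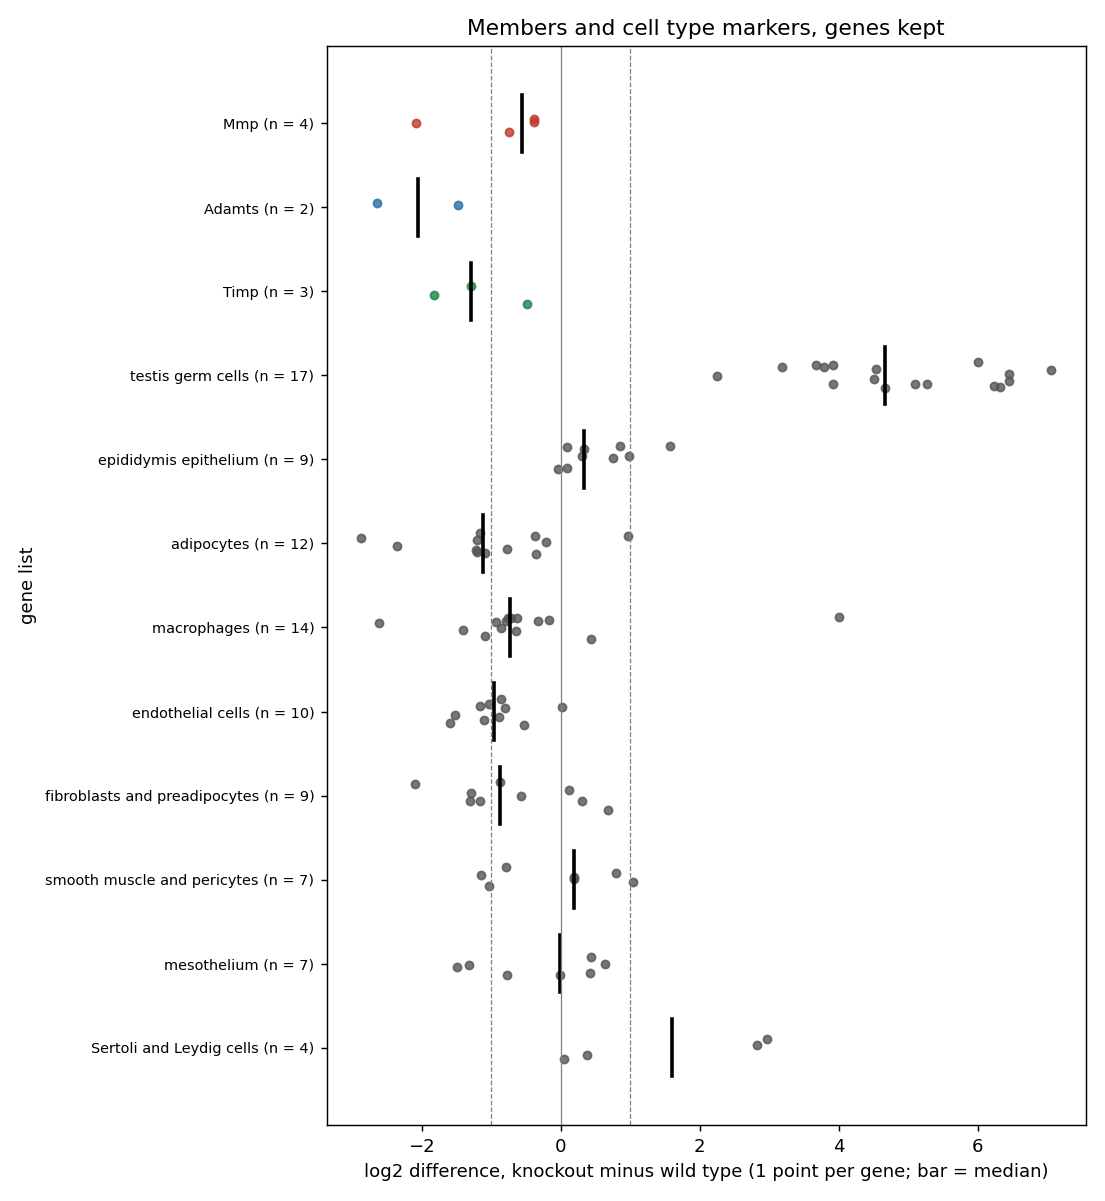
Log2 difference, knockout minus wild type, of the detected genes of the 3 member families and of 10 marker lists less the neutrophil and mast cell list, which had no detected gene; 1 point per gene, bar at the median. Germ cell markers lie between 2.25 and 7.06, and the medians of adipocyte, endothelial, macrophage and fibroblast markers lie between -1.12 and -0.74.

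The targeted gene, Ppard, was below the floor in both pools (6.58 and 6.27) and so gave no check of the labels. For actin, the 3′ probe set was 2.30 times the 5′ one in wild-type and 2.48 times in knockout fat, a ratio that grows when RNA is degraded. For Gapdh the same ratio was 0.80 in wild-type and 0.91 in knockout fat. Of the spiked controls, which carry no genotype, the probe sets of cre differed by 0.13 and 0.16 on the log2 scale. Those of dap differed by -0.85, -0.57 and -0.78.

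**Figure D2:**
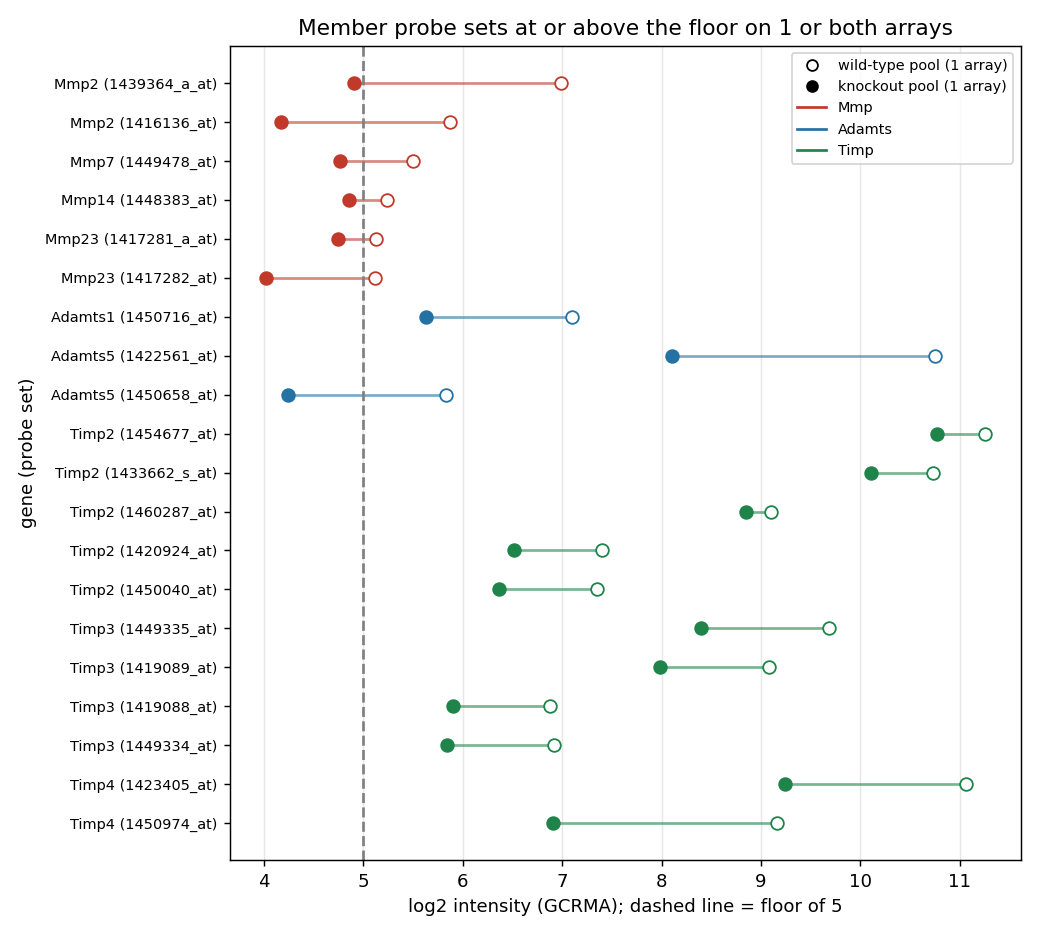
Log2 intensity of the 20 kept member probe sets in the wild-type pool (open circles) and the knockout pool (filled circles), 1 array each, coloured by family; the dashed line is the floor of 5. Each filled circle lies to the left of its open circle, and the knockout circles of all 6 Mmp probe sets and of the dimmer Adamts5 probe set lie below the floor, so those 7 had to lie to the left.

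Adamts5, an aggrecan- and versican-cleaving protease also known as aggrecanase-2, had the lowest difference of all members. Its brighter probe set (1422561_at) was at 1725 in wild-type and at 276 in knockout fat, 6.25-fold lower, a log2 difference of -2.64. Ranked from the lowest difference, the gene stood at 11 of 6533. Its second probe set (1450658_at) was at 56.8 and 18.9, the latter below the floor, at least 1.77-fold lower. This second probe set was kept through the wild-type array alone, so the values of Adamts5 rest on the brighter one. As measured, the probe sets differed by -2.64 and -1.58, an SD of 0.75. The 90th percentile of this SD over genes with several kept probe sets was also 0.75.

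Adamts1, an anti-angiogenic protease that also cuts versican, was at 137 in wild-type and at 49.4 in knockout fat. This is a 2.78-fold lower value from its only probe set (1450716_at), with a log2 difference of -1.47 and a rank of 189. Adamts1 and Adamts5 are next to each other on chromosome 16 in RefSeq, with no protein-coding gene between them. The nearest measured gene on the Adamts1 side, Cyyr1, was below the floor at 13.1 and 13.3.

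The other Adamts genes were not detected. Adamts4, Adamts8 and Adamts15, which also cut aggrecan or versican, and Adamts7 and Adamts10 were between 8.82 and 16.7 in both pools, below the floor. Differences among their 6 probe sets ran from -0.65 to 0.27 on the log2 scale, and the 2 probe sets of Adamts4 pointed opposite ways.

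**Figure D3:**
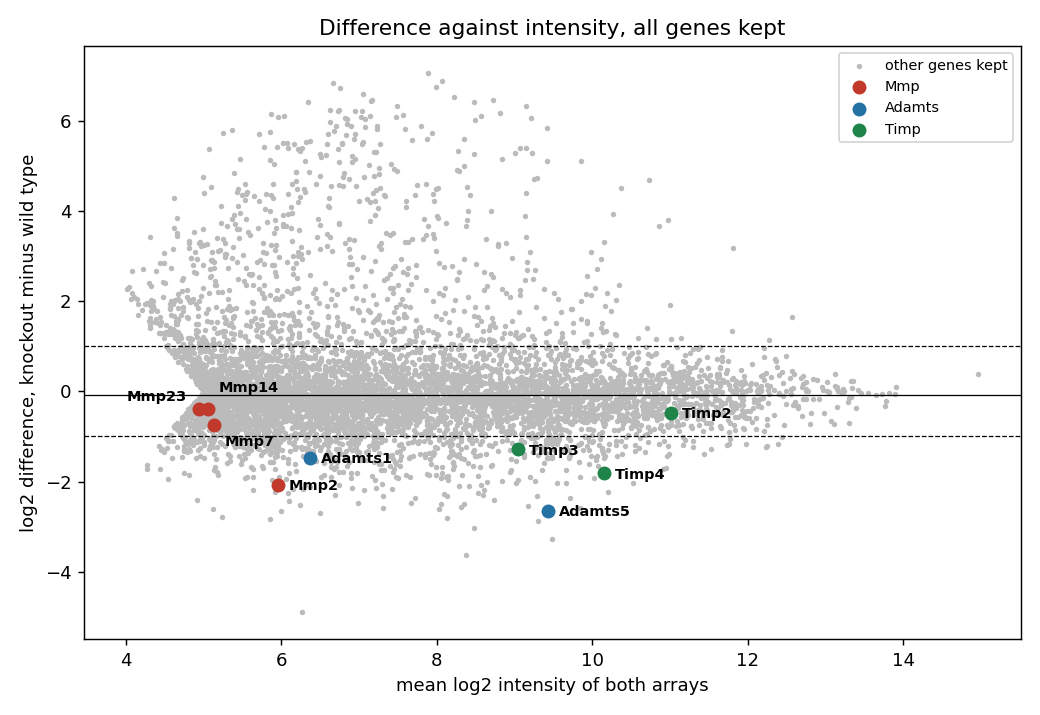
Log2 difference, knockout minus wild type, against the mean log2 intensity of both arrays for the 6533 genes kept (grey) and the 9 detected members (coloured). The solid line is the median of all genes (-0.08) and the dashed lines mark 2-fold; Adamts5 lies at -2.64 and Timp2 at -0.48.

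Of the inhibitors, Timp4 differed most. Timp4 is the member of the family with the most restricted expression and is known from heart and fat. Its brighter probe set (1423405_at) was at 2140 in wild-type and at 606 in knockout fat, 3.53-fold lower (log2 difference -1.82, rank 94). The second (1450974_at) was at 573 and 120, a log2 difference of -2.26. Both probe sets were above the floor on both arrays and both were lower by more than 2-fold. In RefSeq, Timp4 lies within the synapsin gene Syn2 and its next protein-coding neighbour on chromosome 6 is Pparg, the receptor that directs adipocyte differentiation. Pparg, also on the adipocyte marker list (median -1.12), was at 1893 and 370, a log2 difference of -2.35. Both probe sets of Syn2 were below the floor in both pools. A link by position was not tested.

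Timp3, the matrix-bound inhibitor, was lower at all 4 of its probe sets. The probe set with the highest mean (1449335_at) was at 824 in wild-type and at 338 in knockout fat, 2.44-fold lower, with a log2 difference of -1.29 and a rank of 311. The other probe sets were at 543 and 254 (1419089_at), 121 and 57.4 (1449334_at), and 118 and 59.6 (1419088_at). The 4 differences lay between -1.29 and -0.98, an SD of 0.13, against a median SD of 0.25 between probe sets of 1 gene over the 2137 genes with several kept. This SD compares probe sets on the same arrays and does not measure spread between animals. Timp3 also lies within a synapsin gene, Syn3, which was below the floor in both pools.

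Timp2, the widely expressed inhibitor that takes part in the activation of Mmp2, had the smallest difference of the detected inhibitors. It was at 2435 in wild-type and at 1745 in knockout fat (1454677_at), 1.40-fold lower, a log2 difference of -0.48 and a rank of 1709. Its 5 kept probe sets were all lower, with differences from -0.99 to -0.25, none reaching 2-fold; a sixth, at 9.62 and 8.94, was below the floor. The differences of both Timp4 probe sets (-2.26 and -1.82) lay outside this range, whereas those of Timp3, from -1.29 to -0.98, met it. Over the mean of the kept probe sets, the differences were -2.04 for Timp4, -1.11 for Timp3 and -0.65 for Timp2. Cep295nl, a gene that overlaps Timp2 in RefSeq, was undetected at 28.8 in wild-type fat and stood at 816 in knockout fat.

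Timp1, the inhibitor that is induced by inflammation and growth factors, was below the floor, at 12.7 in wild-type and at 12.3 in knockout fat. The 3 inhibitors that were detected therefore had log2 differences of -0.48, -1.29 and -1.82, with a median of -1.29.

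Of the Mmp genes, Mmp2, which degrades denatured collagen and basement membrane collagen, differed most. The probe set 1439364_a_at was at 127 in wild-type and at 30.1 in knockout fat, the latter just under the floor, at least 3.97-fold lower (log2 difference as measured -2.08, rank 49). The probe set 1416136_at was at 58.8 and 18.1, at least 1.84-fold lower. Both probe sets were kept through the wild-type array alone.

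Mmp14, the membrane-bound activator of Mmp2, was close to the floor in both pools. One probe set was at 37.9 in wild-type and at 29.0 in knockout fat (1448383_at), at least 1.18-fold lower, and the other at 30.8 in both. Since the knockout values of Mmp2 and Mmp14 were both under the floor, their differences were not set against each other.

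Mmp7, the matrilysin made by glandular epithelia, was at 45.4 in wild-type and at 27.2 in knockout fat, at least 1.42-fold lower. Mmp23, a membrane-tethered enzyme found in reproductive tissues, was at 34.9 and 26.8 (1417281_a_at) and at 34.6 and 16.2 (1417282_at), at least 1.09-fold and 1.08-fold lower. These values lie near the floor, and the size of the difference of Mmp23 as measured, -0.38 or -1.09, depended on the probe set.

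The remaining 14 Mmp genes were below the floor in both pools. The collagenases Mmp1a, Mmp1b, Mmp8 and Mmp13 were between 5.83 and 8.68; Mmp1a and Mmp1b are close paralogs, so their probe sets may not separate them. The stromelysins Mmp3, Mmp10 and Mmp11 were between 8.12 and 17.5. The gelatinase Mmp9, known from neutrophils and macrophages, was between 5.26 and 15.4, while all 10 neutrophil and mast cell markers measured were below the floor as well, the highest being Cpa3 at 23.8 and 14.0. The membrane-bound Mmp16, Mmp17 and Mmp24 were between 7.66 and 17.4, and the macrophage elastase Mmp12, Mmp19 and the enamel protease Mmp20 between 5.39 and 25.1, the highest being Mmp19. Differences among the 18 probe sets of these genes ran from -0.71 to 0.38.

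By position, 9 of the measured Mmp genes lie in the cluster on chromosome 9. Of these, 8 were below the floor in both pools, at intensities from 5.39 to 11.7, and only Mmp7 was above it, in the wild-type pool. No expression level can be compared between these genes, since a probe set's intensity also depends on its sequence.

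**Figure D4:**
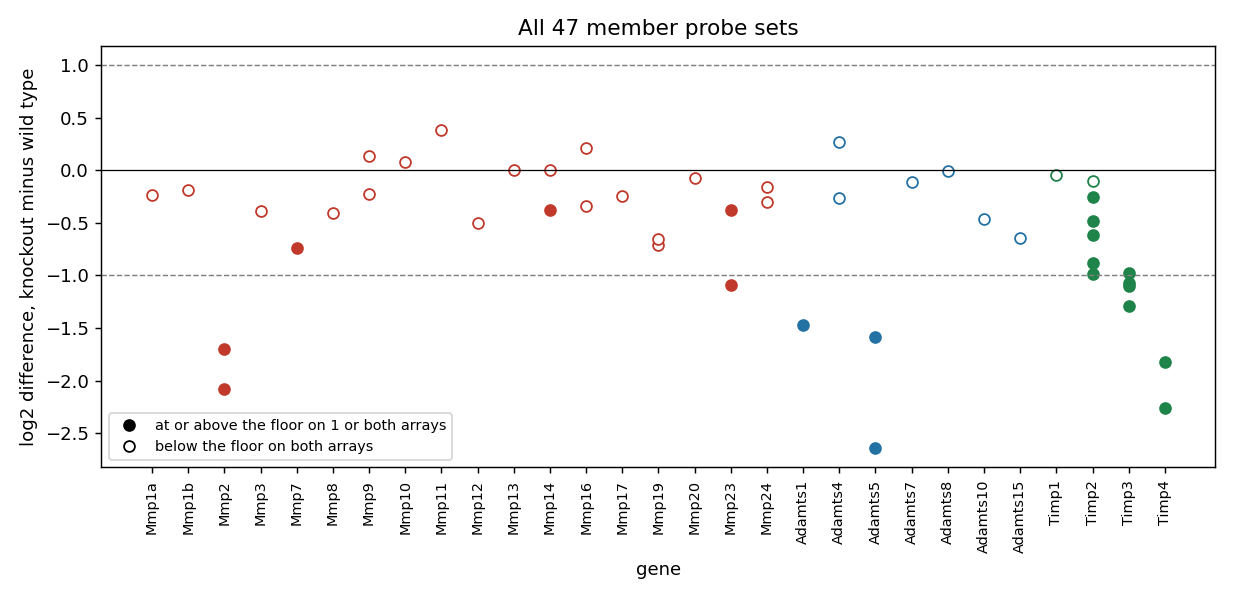
Log2 difference, knockout minus wild type, of each of the 47 member probe sets, with 1 point per probe set above its gene; filled points reached the floor on at least 1 array and open points on neither. The filled points of Timp3 span 0.31, those of Timp4 0.44, and the open points lie between -0.71 and 0.38.

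Other genes of matrix turnover were taken from lists chosen by function. Of 17 further matrix-related proteases outside the 3 families 9 were detected, 8 of them lower and 1 by 2-fold or more. Over all genes kept, 55.5% were lower and 9.14% at least 2-fold lower. Of the 8 lower, 2 (Adam15 and Bmp1) were kept through the wild-type array alone, so their direction was fixed by the floor. The median log2 difference of the 9 was -0.63 against -0.08 for all genes kept. The secreted serine protease Htra3 was the lowest, at 560 in wild-type and at 222 in knockout fat, and Adam10, a membrane sheddase, was at 1786 and 1878. The 3 ADAMTS-like and papilin genes with a probe set (Adamtsl4, Adamtsl5 and Papln) were below the floor.

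Of the plasminogen system, whose protease plasmin activates several Mmp precursors, 5 of 9 measured genes were detected. Of these, 1 was at least 2-fold lower (median -0.41), beside 9.14% of all genes kept. S100a10, a plasminogen receptor subunit, was at 2766 in wild-type and at 1237 in knockout fat, and Plgrkt, another plasminogen receptor, at 175 and 97.7. Anxa2, the partner of S100a10, was at 4111 and 3104. The tissue activator Plat was at 66.4 and 69.8, and Serpinf2, the plasmin inhibitor, at 96.0 and 140. The urokinase gene Plau and its receptor gene Plaur were below the floor.

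Over all genes kept, 55.5% were lower and 9.14% at least 2-fold lower, and the counts of the next lists stand beside these shares. Of 11 measured cathepsins and cystatins 8 were detected, 6 of them lower and 1 at least 2-fold (median -0.28). They ran from Ctsz, at 1373 in wild-type and at 501 in knockout fat, to Ctsh, at 770 and 1221. Of 16 activators, inducers and other regulators of Mmp enzymes 11 were detected, 6 lower and 5 higher, 2 of them at least 2-fold lower. Of the 11, 3 were kept through 1 array alone, so their direction was fixed by the floor. These were Cd44, which is 1 of the 2 at least 2-fold lower, and Spock1 and Spock2, which were higher. The median of these regulators, -0.04, turned positive when differences were centred on the median of all genes (0.04) or corrected for their trend with intensity (0.08). The extremes were Lrp1, the receptor that takes up Mmp and Timp proteins, at 503 and 144, and the proprotein convertase Pcsk5, at 44.4 and 63.9. Reck, a membrane-anchored Mmp inhibitor, was at 109 and 88.8.

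Of 24 measured substrate genes 20 were detected, 18 lower and 5 at least 2-fold lower, beside 55.5% and 9.14% of all genes kept. Of the 18, Vcan and Thbs2 were kept through the wild-type array alone, so their direction was fixed by the floor. The median of the 20 detected genes was -0.63. They ran from Col5a2, a fibrillar collagen, at 809 in wild-type and at 169 in knockout fat, to the small proteoglycan Fmod, at 526 and 684. Versican (Vcan), a substrate of Adamts1 and Adamts5, was at 37.8 and 24.4, at least 1.18-fold lower, and aggrecan (Acan) was below the floor. No gene of these lists was higher by 2-fold or more in knockout fat, beside 13.7% of all genes kept. Among genes at or above the floor on both arrays, 431 of 5452 were at least 2-fold higher. The lists were not tested against the members or against each other.

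**Figure D5:**
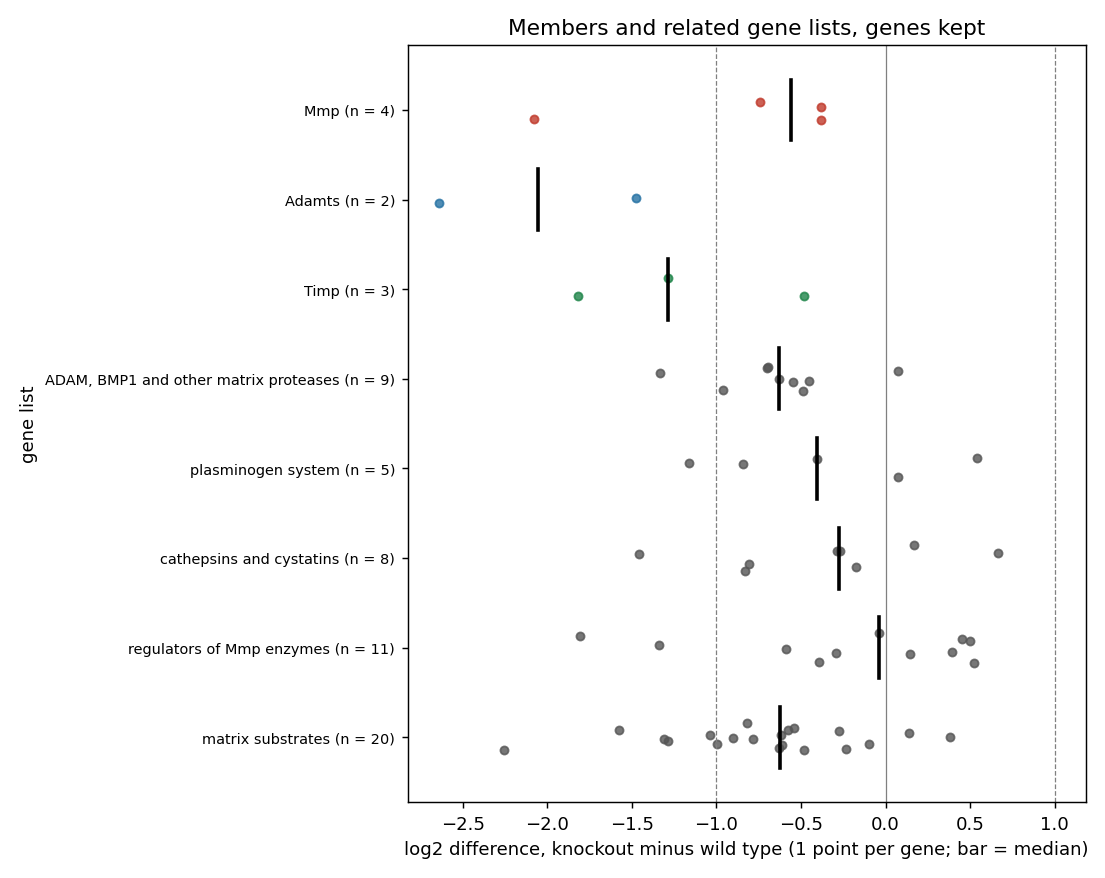
Log2 difference, knockout minus wild type, of each detected gene of the 3 member families and of 5 related lists, with 1 point per gene and a bar at the median; dashed lines mark 2-fold. The medians run from -2.06 in the Adamts genes to -0.04 in the regulators.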

How the data were processed

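RNA extracted with TRIzol was pooled over 5 animals per genotype, biotin-labelled and put on 1 array per pool, per the labels and the design text. The authors deposited linear probe set intensity values, made with GCRMA 2.20 per the submitters' processing notes, a method that corrects background from probe sequence, normalises quantiles and summarises probes. This correction acts most on dim probe sets, so the size of folds near background is uncertain.

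Log2 of each intensity was taken. Of the probe sets, 20393 named 1 gene (20364 updated by Entrez identifier to GRCm38.p6 symbols), 691 several and 1606 none; those without a single gene were not used, and none of them named a member. Where 1 value lay below the floor, the fold was computed with the floor in its place and is worded "at least". All members are named, those below the floor by ranges, and the extremes of each related list; other genes named were chosen after their values were seen, as were the promoter windows shown. Members and lists were chosen with earlier results of these data known. Scripts (Python 3.11.15, pandas 2.3.3, statsmodels 0.14.6) were checked on simulated data. The number of arrays limits the precision. Alternatives varied the floor, the choice of probe set, centring, the intensity trend (lowess, fraction 0.3) and shared-sequence probe sets.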

Additional observations from a re-analysis of the deposited data

How the results depend on the processing

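Values of single genes were not recorded for floors of log2 4 and 6 or for no floor. The other alternatives drew on the same kept probe sets, all of them lower, so the direction of a gene says nothing about stability. Under these alternatives, Adamts1, Adamts5, Timp2, Timp3 and Timp4, the 5 genes above the floor on both arrays, were lower in the knockout pool. Their log2 differences ranged from -2.64 to -2.11 for Adamts5, -1.47 to -1.31 for Adamts1, -2.04 to -1.66 for Timp4, -1.29 to -1.11 for Timp3 and -0.65 to -0.35 for Timp2. The 4 Mmp genes were kept through the wild-type array alone, so their direction says nothing about stability; their differences ranged from -2.08 to -1.70 for Mmp2, -0.74 to -0.50 for Mmp7, -0.44 to -0.24 for Mmp14 and -1.09 to -0.12 for Mmp23. A value was taken to have moved when it shifted by more than 0.25, the median SD between probe sets of 1 gene, or a count by more than 1.5 times. The Adamts median (-2.06) was -1.47 when the floor was log2 4, -0.46 without a floor and -1.79 over the mean of a gene's probe sets. The Timp median was -0.88 with no floor. The Mmp median (-0.56) was -2.08 with a floor of log2 6, which left Mmp2 alone, and -0.92 without probe sets of shared sequence, where 2 Mmp genes instead of 1 were at least 2-fold lower. Of the related lists, the regulators had a median of -0.34 with a floor of log2 6, and 1 gene instead of 2 at least 2-fold lower with that floor, with dim values set to the floor, or with the floor asked of both arrays. Their median was 0.044 after centring and 0.080 with the intensity trend removed. The further proteases had 2 genes at least 2-fold lower over the mean of probe sets, and the cathepsins 0 without probe sets of shared sequence. Over all genes the median was 0.035 with the trend removed, and 431 instead of 893 genes were at least 2-fold higher when the floor was asked of both arrays, an alternative chosen after seeing the data. No paired analysis was possible because each genotype has 1 array. Signal near background limits the Mmp values, since no Mmp gene was above the floor in the knockout pool.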
